A study of Rattus norvegicus with 12 samples.

Results

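The genes described here encode the classical axon guidance ligands and their receptors, as expressed in rat hippocampal neurons in culture. They were chosen by symbol: semaphorins 3 to 7, plexins, neuropilins, ephrins, Eph receptors, Slits, Robos, netrins, Unc5 receptors and Dcc. The symbols matched 69 rows of the 26404 genes in the authors' table, and 59 of these had a mean of 10 or more scaled fragments over the 6 polyA libraries. These 59 members, 31 ligands and 28 receptors, were all tested, together with every other gene of the table that reached the same mean, 12605 in all. The lowest members were Epha2, with a mean of 12.7 scaled fragments, and Ntn3, with 15.8. Just under the minimum lay Sema3g, with 9.07, and Efna1, with 6.88. Ephb4 had a mean of 3.95, Efna4 2.74, Epha1 1.51, Robo3 0.523, Ntn5 0.511 and Plxnb3 0.486. Robo4, which has 2 rows, was listed at 0 in all 6 libraries.

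Both groups were hippocampal cultures enriched for neurons, prepared from Sprague-Dawley rats at embryonic day 18. Control cultures received vehicle and the others picrotoxin, a blocker of the GABA-A receptor chloride channel that raises network activity. Either was added at 18 days in vitro for 48 h, and RNA was taken at 20 days in vitro. Each group had 3 polyA libraries, numbered 3, 10 and 20 in both groups. What the numbers mark is not stated; they are called replicates here, as the series text does. That text calls them biological, but whether they came from separate preparations is not given, so the p-values measure the spread between these libraries. In the fits below each gene's spread was drawn toward that of other genes, so its p-value does not rest on its own libraries alone. No genotype or transgene was involved, and no dose of picrotoxin is stated in the labels.

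Guidance cues steer growing axons by attracting or repelling the growth cone. Semaphorins signal through plexins, with neuropilins as co-receptors for most secreted class 3 members. Ephrins bind Eph receptor tyrosine kinases on neighbouring cells and can signal in both directions. Slits repel through Robo receptors, and netrins attract through Dcc or repel through Unc5 receptors. In mature hippocampal neurons many of the same proteins also act at synapses and dendritic spines.

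The values per library are fragment counts that the authors had divided by a size factor. Their scaled totals per library lay between 12304776 and 12982866. If the most frequent nonzero value of a library is taken as the value of a fragment, the libraries held an estimated 11895727 to 13944778 fragments. Libraries of the same number deviated from their group means together, with correlations across genes of 0.40, 0.39 and 0.53 for replicates 3, 10 and 20. Each result is therefore given from a fit without the replicate number and, where the call differs, also from a fit with replicate number as a block. Since these are bulk samples, fewer cells of a type and less RNA per cell cannot be told apart.

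Per transcript length, the most abundant member was Efnb3, a transmembrane ephrin-B, with 163 FPKM in control and 135 FPKM in picrotoxin in the authors' deposited table. It was followed there by the Eph receptor Epha5 (70.0 and 55.3 FPKM), the neuropilin Nrp1 (49.8 and 50.6 FPKM) and Epha4 (52.2 and 34.5 FPKM). Efna3, Unc5a, Sema6b, Nrp2, Sema3c, Plxnc1, Robo2 and Slit1 came next, with means over both groups between 23.3 and 37.8 FPKM in the authors' deposited table. FPKM, fragments scaled by transcript length and library size, is given there once per group, so it carries no error. Efna3 held its place on a mean of 255 scaled fragments, against 1689 for Sema6b, so its rank depends on the transcript length used. Of the 59 members, 31 had a mean of 10 FPKM or more and 3 were under 1 FPKM in the authors' deposited table, with a median of 11.1 FPKM. The 3 were Plxnb1, Ntn3 and Epha2. Within families the leading members by this measure were Sema3c, Sema6b, Plxnc1, Nrp1, Efna3, Efnb3, Epha5, Ephb6, Slit1, Robo2, Ntn4, Unc5a and Dcc. The summed FPKM of all 31 ligands was 547 in control and 504 in picrotoxin, and that of the 28 receptors 478 and 421, from the authors' deposited table.

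**Figure D1:**
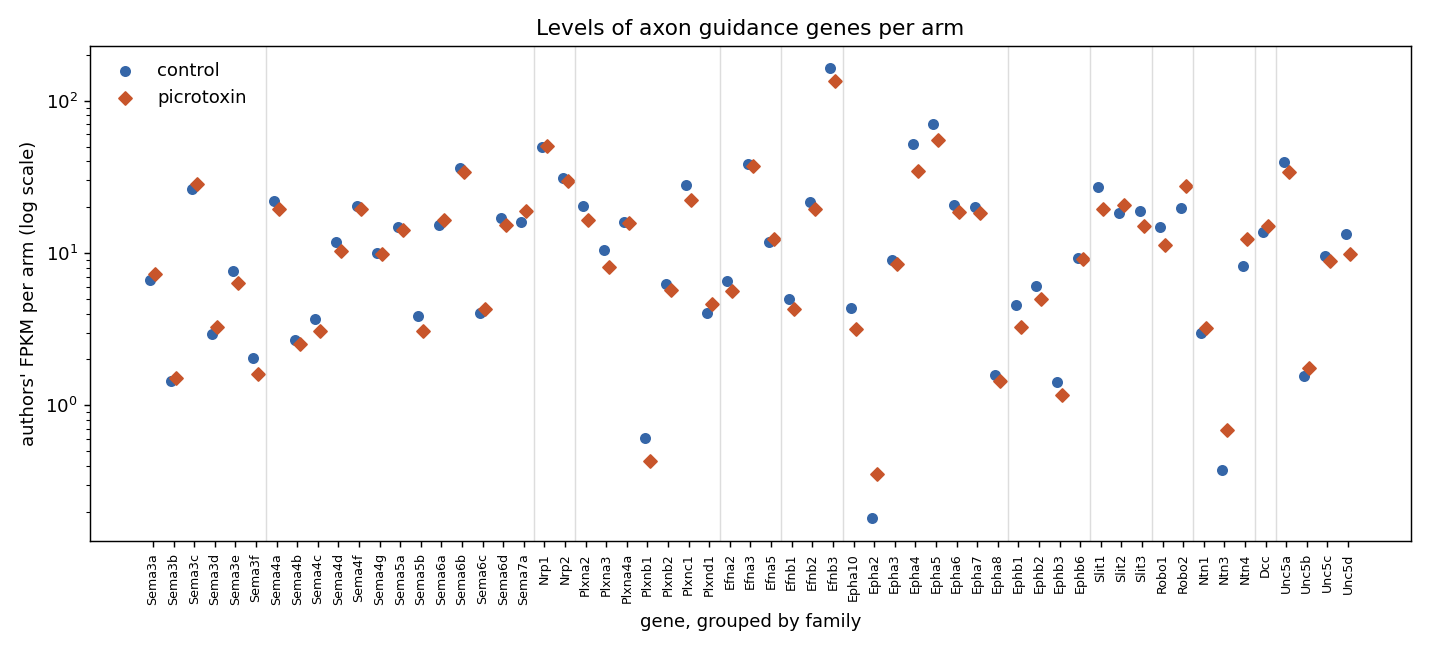
Levels of the 59 members in FPKM, on a log scale, as the authors gave them once per group; circles are control and diamonds picrotoxin, and vertical lines separate families. Efnb3 is the highest in both groups, at 163 and 135 FPKM, and Epha2, Ntn3 and Plxnb1 are the only members under 1 FPKM.

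After 48 h of picrotoxin, transcripts of 1 member, the receptor Epha4, were lower in the fit without a block. That is 1.69% of the members, against 3.25% of all 12605 genes tested (limma, Benjamini-Hochberg adjusted p under 0.05). With replicate number as a block, 15 members passed the test, or 25.4%, against 19.5% of all genes. Of these, 12 fell (20.3% of the members, against 10.1% of all genes), namely Epha4, Epha5, Epha10, Ephb1, Efnb3, Slit1, Slit3, Robo1, Plxna2, Plxna3, Plxnc1 and Unc5d. The other 3 rose (5.08%, against 9.45%), namely Robo2, Ntn4 and Sema7a. The median log2 fold change was -0.12 over the members and -0.01 over all genes tested, with 41 members below 0 and 18 above, or 40 and 19 with either other scaling of the libraries. It was -0.15 over the 28 receptors and -0.07 over the 31 ligands.

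Counts that need no model, taken from the same libraries, pointed to the same direction. In 18 members (30.5%) every picrotoxin library lay below every control library, against 11.6% of all genes. In 3 members, Sema7a, Ntn4 and Ntn3 (5.08%), every picrotoxin library lay above, against 11.5% of all genes. Taken replicate by replicate, 28 members (47.5%) were lower under picrotoxin in each of the 3 replicates, against 26.6% of all genes, and 6 (10.2%) were higher in each, against 25.0%. Separately, in the limma fit without a block, 15 members (25.4%) had an unadjusted p under 0.05, against 17.5% of all genes. That count covers either direction.

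**Figure D2:**
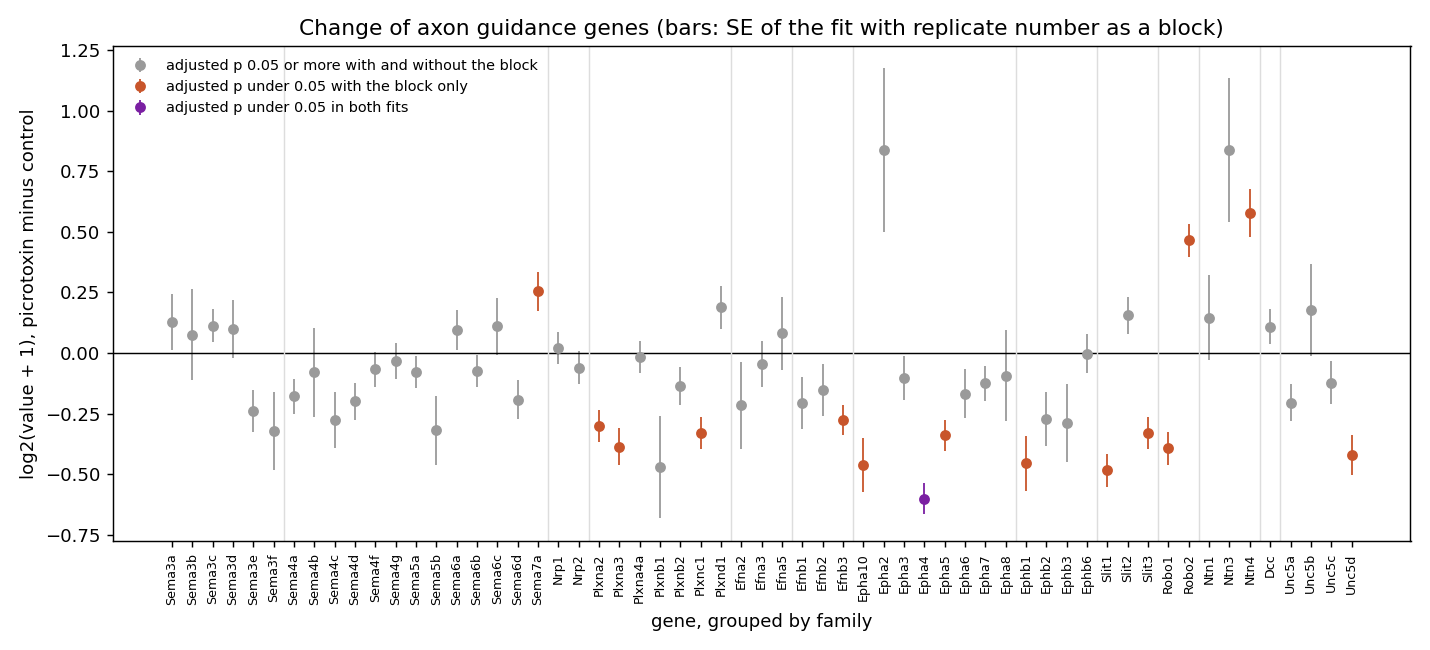
Difference between picrotoxin and control for each of the 59 members on the log2(value + 1) scale, grouped by family, with bars for the standard error of the fit with replicate number as a block. Epha4, at -0.60, passed the test in both fits; 14 more passed with the block only, and 11 of these 14 lie below 0.

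Most ephrin and Eph receptor genes had lower values under picrotoxin. Of 18 members, 16 had a log2 fold change below 0, or 15 with either other scaling of the libraries, against 51.4% of all genes tested that were below 0. In 9 (50.0%, against 11.6%) the picrotoxin libraries lay wholly below the control libraries. With the block 5 fell (27.8%, against 10.1%), and without it 1. Among the ligands, Efnb3 had 6265, 6290 and 6427 scaled fragments in the control libraries of replicates 3, 10 and 20. In the picrotoxin libraries it had 5053, 5665 and 4993. All 3 picrotoxin libraries were below the lowest control library, by a ratio of means of 1.21. The log2 fold change was -0.28 (SE 0.08, adjusted p 0.0846 without the block, and 0.00375 with it). The call with the block was lost without replicate 3 (adjusted p 0.108). Efnb1, another transmembrane ephrin, also had groups that did not overlap, with 188.8 to 211.2 scaled fragments in control and 168.2 to 176.8 in picrotoxin, but did not pass either test (adjusted p 0.196 with the block). The lipid-anchored ephrins Efna2, Efna3 and Efna5 had overlapping groups and log2 fold changes of -0.22, -0.04 and 0.08, none past the threshold.

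Epha4, a receptor for both ephrin classes that is found at hippocampal spines, had 3965, 4645 and 4034 scaled fragments in control and 2829, 3126 and 2407 in picrotoxin (replicates 3, 10 and 20). The highest picrotoxin library lay below the lowest control library, and the control mean was 1.51 times the picrotoxin mean. The log2 fold change was -0.60 (SE 0.11, adjusted p 0.0191; with the block SE 0.06, adjusted p 2.7e-06). The call without the block rested on control library 10 and picrotoxin library 3, since without either one the adjusted p was 0.108 and 0.068. The gene is listed on chromosome 9 from 82880598 to 83022444 in the authors' table, whose genome build is not stated.

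Epha5, the most abundant Eph receptor, had 2942, 2930 and 3204 scaled fragments in control and 2524, 2335 and 2315 in picrotoxin. The groups did not overlap, and its log2 fold change was -0.34 (SE 0.08, adjusted p 0.0515; with the block 9.1e-04). Epha10, an Eph receptor whose kinase domain is inactive, had 165, 211 and 228 scaled fragments in control and 128, 154 and 154 in picrotoxin. All picrotoxin values lay below all control values, and the fitted log2 difference was -0.46 (SE 0.16, adjusted p 0.154; with the block 0.00608). Ephb1, a receptor for ephrin-B ligands, had 213, 232 and 353 scaled fragments in control and 186, 173 and 209 in picrotoxin. The groups lay just apart, with control library 20 standing above its own group, and the log2 fold change was -0.46 (SE 0.19, adjusted p 0.235; with the block 0.00706). It was -0.23 without control library 20, and the call with the block was lost without replicate 20 (adjusted p 0.0601).

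The remaining Eph receptors did not pass the test in either fit. Epha7, Ephb2 and Ephb3 had groups that did not overlap and log2 fold changes of -0.12, -0.27 and -0.29. Epha3, Epha6 and Epha8 overlapped, with log2 fold changes of -0.10, -0.17 and -0.09. An unnamed locus with a mean of 70.9 scaled fragments overlaps Epha6, so some Epha6 fragments cannot be assigned with certainty. Ephb6, which also lacks kinase activity, was at 583, 466 and 359 scaled fragments in control and 540, 493 and 364 in picrotoxin. The lowest values were in replicate 20 of both groups, and its fitted difference was 0.00 (adjusted p 0.996). Epha2 had the largest fitted rise of the family, 0.84, on 9.73, 4.49 and 11.7 scaled fragments in control and 22.4, 7.31 and 20.9 in picrotoxin. Its control mean was 8.63 and its picrotoxin mean 16.9, so it reached the minimum of 10 only through the picrotoxin group. The filter thus favoured a rise in this gene. Its groups overlapped, and its adjusted p was 0.432, or 0.0912 with the block.

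In the Slit and Robo system, Robo1 was lower and Robo2 higher under picrotoxin, and both passed only with the block. Robo1 had 876, 893 and 997 scaled fragments in control and 669, 665 and 774 in picrotoxin (replicates 3, 10 and 20). No picrotoxin library reached the control range, and the log2 fold change was -0.39 (SE 0.10, adjusted p 0.0681; with the block 4.3e-04). Robo2 had 1774, 1968 and 2467 scaled fragments in control and 2451, 2446 and 3782 in picrotoxin. Each replicate was higher under picrotoxin than its own control, but control library 20 slightly exceeded picrotoxin libraries 3 and 10, so the groups overlapped. The log2 fold change was 0.47 (SE 0.18, adjusted p 0.199; with the block SE 0.07, adjusted p 6.2e-05), or 0.26 without picrotoxin library 20. The per-replicate log2 differences were 0.47, 0.31 and 0.62 for Robo2 and -0.39, -0.43 and -0.36 for Robo1.

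Within each library, the ratio of Robo2 to Robo1 scaled fragments was 2.03, 2.20 and 2.47 in control and 3.66, 3.68 and 4.89 in picrotoxin. The 2 sets of ratios did not overlap. This ratio was chosen after its values were seen and was not tested, and since it is not corrected for length only its change between libraries can be read. The 2 genes lie on the same chromosome, 11, in the authors' table, Robo1 from 13298874 to 13807531 and Robo2 from 14733230 to 14884133.

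Of the ligands, Slit1 had 1553, 1514 and 1929 scaled fragments in control and 1224, 1054 and 1287 in picrotoxin. The groups did not overlap, the control mean was 1.40 times the picrotoxin mean, and the log2 fold change was -0.48 (SE 0.12, adjusted p 0.0587; with the block 4.7e-05). Slit3 had 1091, 1005 and 1108 scaled fragments in control and 839, 816 and 893 in picrotoxin. Its groups were also apart, and the fitted log2 difference was -0.33 (SE 0.09, adjusted p 0.0776; with the block 0.00155). Slit2 had 1582, 1654 and 1788 scaled fragments in control and 1659, 1622 and 2404 in picrotoxin. The log2 differences within replicates 3, 10 and 20 were 0.07, -0.03 and 0.43, and the log2 fold change of 0.16 did not pass either test (adjusted p 0.654, or 0.177 with the block). The ratio of Slit2 to Slit1 fragments in the same library, again a description chosen after the values were seen, was 1.02, 1.09 and 0.927 in control and 1.36, 1.54 and 1.87 in picrotoxin.

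The sequences just upstream of the start sites are shown for Robo1, Robo2 and Slit3, the members of the Slit and Robo system that changed with replicate number as a block and for which RefSeq's GRCr8 table held an entry. Each run is the 250 bases before an annotated start, 5′ to 3′ on the gene's strand. Robo1 has 2 such starts. Capitals mark GC boxes (GGGCGG or its reverse complement CCGCCC), E-boxes (CANNTG) and the core of the cAMP response element (TGACG on either strand).
Robo1, chr11:24067706-24067955, plus strand: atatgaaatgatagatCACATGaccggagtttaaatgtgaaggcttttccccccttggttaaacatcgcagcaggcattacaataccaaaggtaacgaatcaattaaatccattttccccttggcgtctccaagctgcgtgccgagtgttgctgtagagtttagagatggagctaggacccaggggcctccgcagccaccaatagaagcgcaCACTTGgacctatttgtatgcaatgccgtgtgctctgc
Robo1, chr11:24714445-24714694, plus strand: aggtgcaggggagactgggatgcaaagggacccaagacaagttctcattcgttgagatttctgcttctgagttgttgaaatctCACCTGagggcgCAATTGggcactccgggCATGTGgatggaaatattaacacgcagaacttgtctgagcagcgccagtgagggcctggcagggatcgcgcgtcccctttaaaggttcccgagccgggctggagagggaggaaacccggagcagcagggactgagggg
Robo2, chr11:26526413-26526662, minus strand: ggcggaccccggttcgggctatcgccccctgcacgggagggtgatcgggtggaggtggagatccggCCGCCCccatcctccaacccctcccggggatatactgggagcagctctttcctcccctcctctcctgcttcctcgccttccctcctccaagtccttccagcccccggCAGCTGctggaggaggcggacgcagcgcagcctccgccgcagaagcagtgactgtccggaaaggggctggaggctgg
Slit3, chr10:20075679-20075928, plus strand: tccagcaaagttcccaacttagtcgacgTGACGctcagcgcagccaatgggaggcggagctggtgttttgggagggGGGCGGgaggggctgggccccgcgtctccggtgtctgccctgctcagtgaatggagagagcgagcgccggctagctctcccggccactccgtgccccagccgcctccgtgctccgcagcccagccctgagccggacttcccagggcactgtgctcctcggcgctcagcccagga
The 2 Robo1 sequences hold E-boxes and no GC box. That of Robo2 holds 1 E-box and 1 GC box, and that of Slit3 holds 1 GC box and 1 TGACG core. With the 50 bases after the start included, the Robo1 windows had 45.7% and 57.3% G and C, the Robo2 window 68.3% and the Slit3 window 69.3%. These letters describe the windows and were not tested against the changes.

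Among semaphorins and their receptors, 4 of 28 members passed with replicate number as a block (14.3%, against 19.5% of all genes). Of the 19 semaphorins, limma called 1 with the block and 0 without it (1 at an unadjusted p under 0.05), and the median log2 fold change was -0.07. The called member was Sema7a, a membrane-anchored semaphorin that binds plexin C1 and integrins. It had 507, 534 and 488 scaled fragments in control and 551, 628 and 649 in picrotoxin. Every picrotoxin library was above every control library, by a ratio of means of 1.20, and the log2 fold change was 0.25 (SE 0.10, adjusted p 0.225; with the block 0.029). The call with the block was lost when any 1 of the 3 replicates was left out (adjusted p 0.0559 to 0.165).

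The class 3 semaphorins, which are secreted, did not pass a test, and 4 of 6 were above 0, or 3 with quantile scaling. Sema3c, the most abundant, had 1719, 1563 and 1462 scaled fragments in control and 1898, 1511 and 1729 in picrotoxin. The groups overlapped, and the fitted log2 difference was 0.11 (SE 0.11, adjusted p 0.667). Sema3a, Sema3b and Sema3d had fitted differences between 0.07 and 0.13, while Sema3e and Sema3f were at -0.24 and -0.32 with groups that lay apart. Of the 13 membrane-bound members of classes 4 to 7, 10 were below 0. Sema4a, Sema4c and Sema5b lay wholly below their controls, at -0.18, -0.28 and -0.32, none past the threshold in either fit. Sema6b, the most abundant of these, had 1683, 1722 and 1792 scaled fragments in control and 1613, 1742 and 1584 in picrotoxin, which overlap.

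Among semaphorin receptors, 3 of 7 plexins fell with replicate number as a block (42.9%, against 10.1% of all genes). Plxnc1, the receptor for Sema7a, had 1614, 1733 and 1639 scaled fragments in control and 1251, 1297 and 1425 in picrotoxin. The groups did not overlap, and the log2 fold change was -0.33 (SE 0.09, adjusted p 0.071; with the block 0.00149). The ligand Sema7a and the receptor Plxnc1 had opposite signs in each of the 3 replicates. Both were named because the fit with the block called them, in opposite directions, so this is a description and was not tested. Plxna2, a receptor for class 3 and class 6 semaphorins, had 2242, 2580 and 3193 scaled fragments in control and 2047, 1958 and 2458 in picrotoxin. Its groups overlapped, with replicate 20 highest in each, and its log2 fold change was -0.30 (SE 0.13, adjusted p 0.283; with the block 0.00307), or -0.17 without control library 20. Plxna3 showed the same arrangement, with 925, 893 and 1130 scaled fragments in control and 650, 631 and 1018 in picrotoxin. Its log2 fold change was -0.39 (SE 0.18, adjusted p 0.30; with the block 0.00149), or -0.61 without picrotoxin library 20. The call with the block was lost without replicate 3 (adjusted p 0.0634). Plxna4a, Plxnb1, Plxnb2 and Plxnd1 did not pass, with log2 fold changes of -0.02, -0.47, -0.14 and 0.19.

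The neuropilins had fitted differences near 0. Nrp1 had 2367, 2361 and 2429 scaled fragments in control and 2424, 2624 and 2230 in picrotoxin, and the picrotoxin values enclosed those of control. Its log2 fold change was 0.02 (SE 0.08, adjusted p 0.932). Nrp2 was at -0.06 (SE 0.12, adjusted p 0.854), with replicate 20 highest in both groups. A p above the threshold does not show that these levels were equal.

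In the netrin system, Ntn4 rose and Unc5d fell with replicate number as a block, and neither passed without it. Ntn4, a netrin that binds laminins of the basement membrane, had 194, 163 and 212 scaled fragments in control and 271, 244 and 337 in picrotoxin. All picrotoxin libraries exceeded all control libraries by a ratio of means of 1.50, and the log2 fold change was 0.58 (SE 0.16, adjusted p 0.0777; with the block 3.8e-04). Ntn3 also had groups apart, on 8.76, 10.8 and 13.8 scaled fragments in control and 19.4, 18.8 and 23.0 in picrotoxin, with a log2 fold change of 0.84 (adjusted p 0.16, or 0.0555 with the block). Ntn1, the classical attractant, overlapped between groups and was at 0.15 (adjusted p 0.803). The sequence before the annotated start of Ntn4, from the same RefSeq table and with a GC box in capitals, is shown because this ligand had the largest rise among members called with the block.
Ntn4, chr7:30073387-30073636, plus strand: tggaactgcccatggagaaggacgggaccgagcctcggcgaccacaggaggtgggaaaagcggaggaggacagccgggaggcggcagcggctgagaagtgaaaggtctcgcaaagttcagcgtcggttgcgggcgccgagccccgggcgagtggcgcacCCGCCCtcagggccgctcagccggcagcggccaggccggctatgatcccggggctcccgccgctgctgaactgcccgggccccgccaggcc
Its window, with the 50 bases after the start, had 74% G and C and 38 CpG dinucleotides, against medians of 63.8% and 18 over the members and 51.7% and 7 over all promoters of the table.

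Of the netrin receptors, Unc5d, which also binds FLRT adhesion proteins, had 416, 404 and 596 scaled fragments in control and 331, 303 and 415 in picrotoxin. Each picrotoxin library was below the control of its own replicate, but picrotoxin library 20 reached the control range. The log2 fold change was -0.42 (SE 0.17, adjusted p 0.231; with the block 0.00125), or -0.24 without control library 20. Unc5a, the most abundant Unc5 receptor, had 1168, 1390 and 1349 scaled fragments in control and 1161, 1236 and 998 in picrotoxin, a log2 fold change of -0.20 (adjusted p 0.389, or 0.0679 with the block). Unc5b and Unc5c were at 0.18 and -0.12 and did not pass. Dcc, the attractive netrin receptor, had 710, 706 and 926 scaled fragments in control and 760, 704 and 1088 in picrotoxin. Replicate 20 was highest in both groups, and the log2 fold change of 0.11 did not pass (SE 0.17, adjusted p 0.818).

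**Figure D3:**
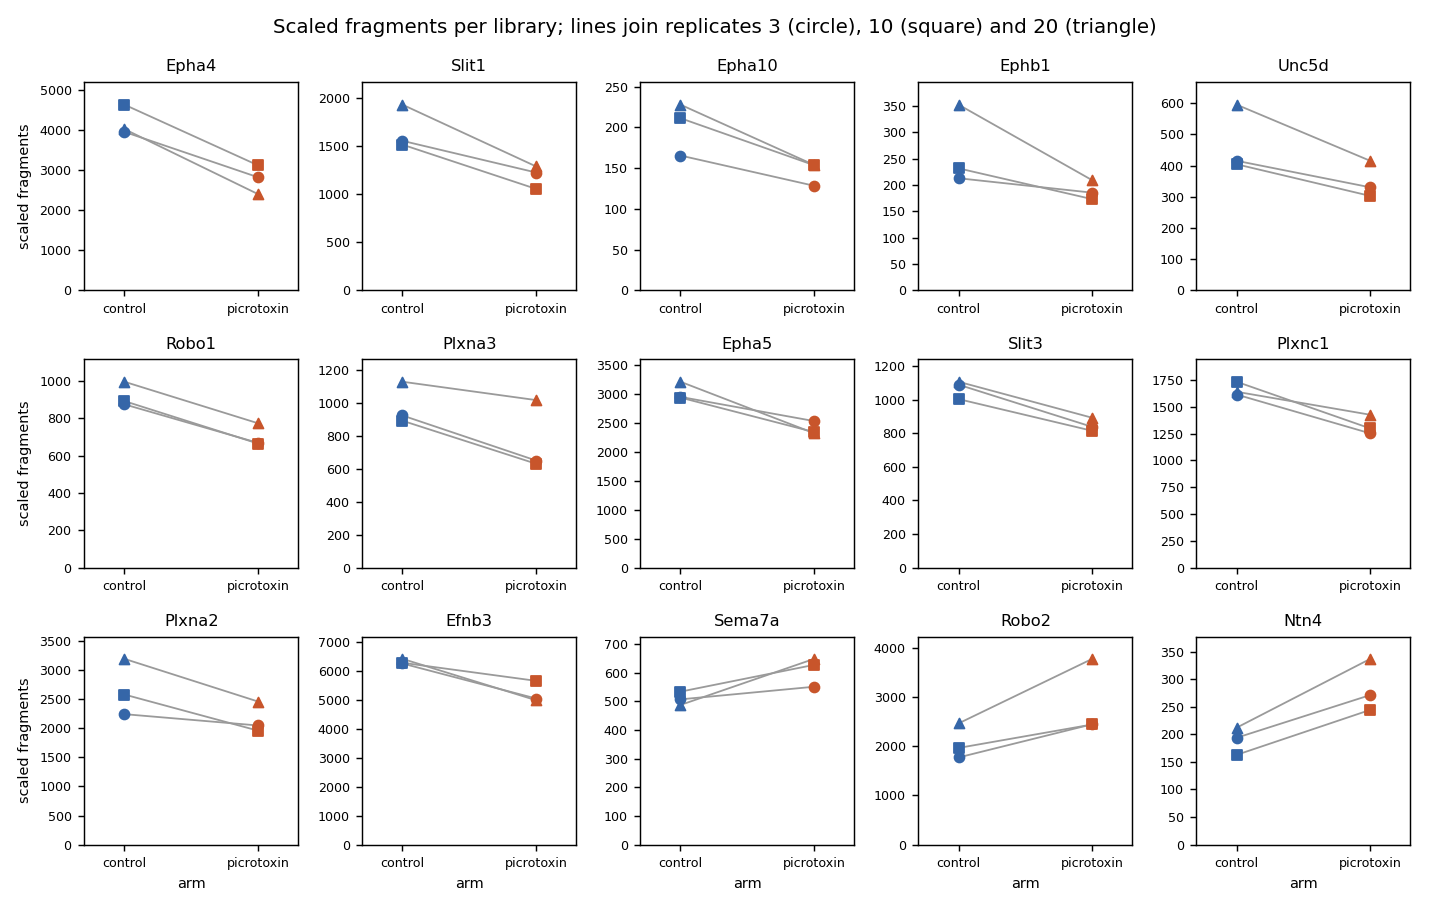
Scaled fragments per library for the 15 members called with replicate number as a block; lines join the control and picrotoxin library of the same replicate, and each vertical axis starts at 0. In every panel the 3 lines run in one direction, downward for 12 members and upward for Sema7a, Robo2 and Ntn4.

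In some members, as in many other genes, the libraries of replicate 20 lay apart irrespective of treatment. In 14 members (23.7%) both libraries of replicate 20 lay above the other 4 libraries, against 18.6% of all genes. They were Nrp2, Robo2, Epha6, Slit2, Sema6d, Sema6a, Sema5a, Dcc, Efna5, Sema4g, Plxna3, Unc5c, Plxnb2 and Plxnd1. In 3 members (5.08%), Efna3, Ephb6 and Sema3b, both lay below, against 16.3% of all genes. Sema6d, for example, had 1660 and 1621 scaled fragments in replicate 20 and 793 to 1100 in the other libraries. Of 10 markers of inhibitory neurons, 7 were likewise above the other 4 libraries in both libraries of replicate 20, while Sst, Npy and Pvalb were not. Gad1, for example, had 9366 and 12142 scaled fragments in replicate 20 against 6112 to 7530 in the other 4 libraries. Whether the makeup of the cultures bears on the members' values was not tested.

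**Figure D4:**
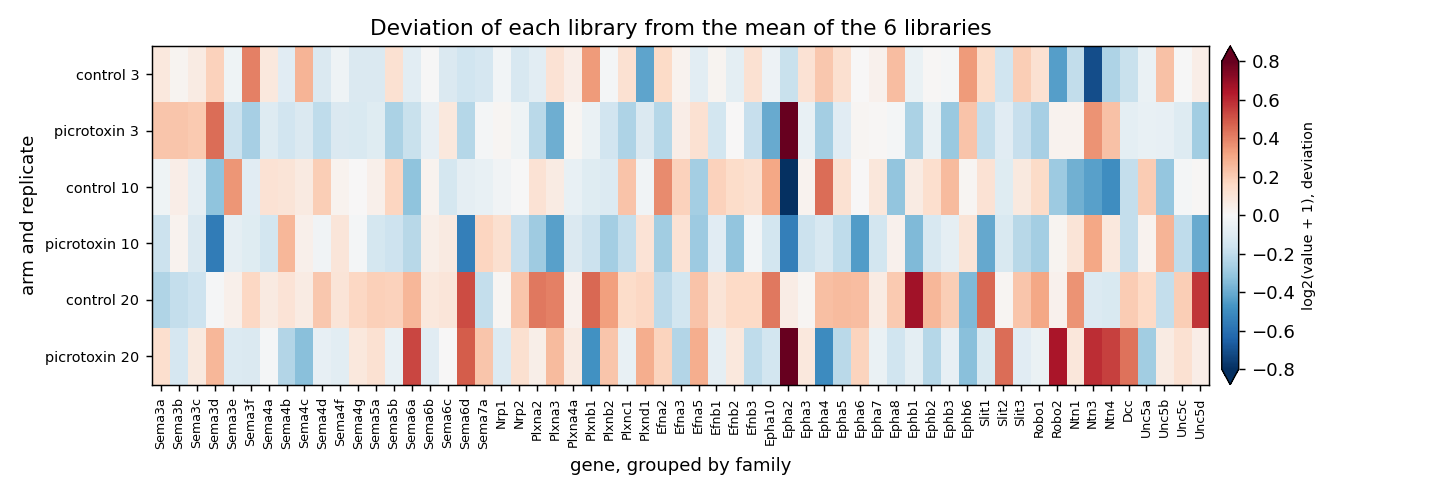
Deviation of each library from the mean of the 6 libraries for the 59 members on the log2(value + 1) scale, with red above and blue below the mean. The rows of replicate 20 share red columns at Sema6d and Sema6a, and Epha4 is red in all 3 control rows and blue in all 3 picrotoxin rows.

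Marker lists for the cell types such cultures can hold were read from the same fit. The excitatory list (9 of 10 symbols matched) summed to between 28877 and 31505 scaled fragments in control and between 18560 and 24114 in picrotoxin. Camk2a fell and Slc17a6 rose; the fit with the block called 5 lower and 2 higher. The inhibitory list summed to 15457 to 22427 in control and 18810 to 30080 in picrotoxin, with 0 called in limma without the block (1 at an unadjusted p under 0.05) and 3 that rose with it. The astrocyte list summed to 6562 to 8801 and 6024 to 8358, with 0 called in limma without the block (0 also at an unadjusted p under 0.05) and 4 that fell with it. The oligodendrocyte lineage (717 to 842 and 735 to 855), meningeal (1222 to 2061 and 1458 to 2250), endothelial and mural (59.3 to 76.9 and 73.9 to 93.1) and dividing cell lists (123 to 127 and 139 to 183) were summed in the same way. With the block Lum, Kdr and Top2a rose, 1 each in the meningeal, endothelial and dividing cell lists. Sox10 and Cdh5 were listed at 0. Microglial markers summed to at most 9.72 scaled fragments, with Itgam listed at 0. The part of shifts in excitatory and astrocyte markers in the members' changes was not tested.

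Other genes of these pathways were read from 6 lists of downstream and partner genes, with 104 of 108 symbols tested. Of these 1 rose, 3 fell and 100 did not pass without the block, and with it 4 rose and 24 fell. That is 3.85% called without the block, against 3.25% of all genes tested, and with it 23.1% lower and 3.85% higher, against 10.1% and 9.45%. The median log2 fold change was -0.11. The lists were chosen with earlier results of these data known, so these shares are a description and no test of the pathways. With the block, 5 of 19 genes downstream of semaphorins fell, among them the collapsin response mediators Crmp1, Dpysl3 and Dpysl4 and the adhesion protein L1cam. The mediators Dpysl2 and Dpysl5 did not pass (limma adjusted p 0.0723 and 0.396 with the block), nor did the adhesion protein Nrcam (0.0508). Of 21 genes downstream of ephrins 5 fell and 1 rose, of 15 in the Slit and Robo list 5 fell and 1 rose, and of 16 in the netrin list 2 fell, the receptor Neo1 and the kinase Pak1. Of 18 genes of other cues 5 fell and 1 rose. Rgma, a repulsive cue that binds neogenin, had 1260, 1458 and 1528 scaled fragments in control and 788, 781 and 832 in picrotoxin. Its groups lay far apart, and its log2 fold change was -0.82 (SE 0.10, adjusted p 0.00481), a call that held without any single library. Kalrn, which acts downstream of EphB receptors in dendritic spines, fell from 2932 ± 157 to 1954 ± 71.8 scaled fragments (mean ± SD, n = 3 each; log2 fold change -0.58, limma adjusted p 0.00758). SDC3, a heparan sulfate proteoglycan of axons, fell from 2446 ± 284 to 1635 ± 37.7 (n = 3 each; log2 fold change -0.57, limma adjusted p 0.0149). Cfl2, an actin-severing cofilin, rose from 3043 ± 79.3 to 3876 ± 196 (n = 3 each; log2 fold change 0.35, limma adjusted p 0.0363). Without control library 10, none of these 3 passed (adjusted p 0.0567 for Kalrn, 0.0746 for SDC3 and 0.213 for Cfl2). SDC3 was also lost without picrotoxin library 3 (0.0618) or 10 (0.0518). For Cfl2 any 1 of 5 libraries ended the call, all but picrotoxin library 20, with adjusted p between 0.0828 and 0.213.

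In the authors' deposited table, 7 of the 56 members with status OK were marked significant (12.5%), against 7.51% of all 12405 such genes. They were Epha4 (q 0.00155), Robo2 (q 0.00155), Slit1 (q 0.00393), Ntn4 (q 0.0106), Robo1 (q 0.0331), Ephb1 (q 0.0341) and Unc5d (q 0.0443) in the authors' deposited table. All 7 are also among the 15 members called here with replicate number as a block, from the same libraries. Plxnb1, Ntn3 and Epha2 had no test there.

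UTR lengths in the authors' deposited table, 1 value per gene model and group with libraries pooled, covered 52 members in 53 entries. The median 3′ UTR in control was 1559 bases, against 716 over all entries of the authors' deposited table. The longest were those of Sema5a (6591 bases), Unc5c (6385), Unc5d (5946) and Dcc (5124) in the authors' deposited table. Of 51 entries with both groups, 19 had the same 3′ length, 8 (15.7%) differed by more than 100 bases, against 11.5% of all 10521 entries, and 11 (21.6%) differed by more than 100 bases at the 5′ end, against 12.2%. Some 3′ lengths are listed as 0 or -1, whose meaning is not stated. With those left out, a choice made after seeing the data, 6 of 46 entries differed by more than 100 bases at the 3′ end (13%, against 10.3%). The largest 3′ difference in the authors' deposited table was at Ephb6, with 2902 bases in control and 142 in picrotoxin, followed by Sema6c with 740 and 44. Of the members whose transcripts changed, Epha4 was listed there at 3188 and 3217 bases, Robo1 at 1657 in both, Slit1 at 2619 and 2616 and Plxna3 at 940 and 1109. Single pooled values give no error, so none of these differences could be tested.

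RefSeq's promoter table matched 45 members with 46 windows of 300 bases, 250 before and 50 after the start, among 33469 in all. GC boxes occurred in 24 of the 46 (52.2%, against 33.1% of all windows) and E-boxes in 31 (67.4%, against 72.1%). TATAAA occurred in 0 of 46, against 14.2% of all. A full cAMP response element, TGACGTCA, which contains that core, was found in Epha2 (2.17%, against 1.83%), and the core TGACG in 9 windows (19.6%, against 21.2%). An AP-1 site, TGANTCA, was found in Epha10 (2.17%, against 7.33%) and an Egr site, GCGTGGGCG, in Efna3, Sema6d and Plxna2 (6.52%, against 0.544%). The Egr share rests on 3 windows, and 1 of the 12 windows of members called with the block held the site. The members' windows had a median of 63.8% G and C, against 51.7% over all. Whether this bears on the shares of G- and C-rich motifs was not tested. Both strands were searched, and a match is a description of the letters and not of binding.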

How the data were processed

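PolyA libraries of replicates 3, 10 and 20, each with a control and a picrotoxin library, were used; the 6 small RNA libraries were not. The submitters' processing notes list bedtools 2.22.1, Cuffdiff, Cuffnorm, Cufflinks 2.2.1 and STAR 2.3.1z12, without roles, and no genome build. The deposited values per library are a signal: fragment counts that the authors divided by a size factor, with 99.8% to 99.9% of values in a library within 0.1 of a whole multiple of 1 step (0.8988 to 1.06). Per the file headers, the authors' second table gives FPKM per group and each gene's p-value and q-value, and the deposited UTR table gives lengths in bases, where 0 and -1 also occur.

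Genes with a mean of 10 or more over the 6 libraries entered a fit of log2(value + 1) in limma 3.58.1, run under R 4.3.3 with its trend and robust options and without covariates. The adjusted p is Benjamini-Hochberg over 12605 genes, two-sided, with a threshold of 0.05. Fold changes on this scale understate changes of low genes. The alternative fit had the replicate number as a block. In both fits limma moderated each gene's variance toward a trend across genes. This carries more weight with the block, where less of each gene's own spread is left to estimate. Same-numbered libraries correlated in their deviations from the group means (0.40, 0.39 and 0.53, against -0.36 to 0.03 for other pairs), so the numbers were taken to pair the libraries. The script was tested on simulated data.

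Other alternatives were pseudocounts of 0.1 and 5, an FPKM filter of 1 or none, quantile scaling and median-ratio scaling, limma with both options off, and the omission of single libraries or replicates. Named were members called in either fit, the most abundant member of each family, and up to 3 called genes per downstream list; other members are named where a count or a group is described. Members and lists were chosen with earlier results of these data known. The downstream and marker lists had 1 unmatched symbol each, Chl1 and Neurod2. The separate count of 1 downstream list, whose genes are in the totals, and the calls with the block in the oligodendrocyte lineage list are not reported here.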

Additional observations from a re-analysis of the deposited data

How the results depend on the processing

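The log2 fold changes of the 15 members called with replicate number as a block kept their sign in every alternative run, whereas the calls depended on the design. Each of the 15 had differed in one direction in every replicate, so leaving out a replicate could not turn its sign. The kept signs are therefore no evidence of stability. For members, all genes tested and downstream genes, 1, 410 and 4 passed without the replicate block, and 15, 2459 and 28 with it. The block without replicate 3, 10 or 20, added after seeing the data, gave 12, 15 and 17 members, 1409, 1935 and 2564 genes, and 20, 25 and 32 downstream genes. Of the 15 members called with the block, 12 were kept without replicate 3 (Efnb3, Plxna3 and Sema7a lost), 14 without replicate 10 (Sema7a lost) and 13 without replicate 20 (Ephb1 and Sema7a lost). These blocked fits leave little of a gene's own spread, and their error comes mostly from spread shared across genes. A call kept there therefore reflects mainly the size of the change and is weak support for stability. Without the block, leaving out 1 library gave 0 to 7 members, 67 to 897 genes and 1 to 15 downstream genes, the highest of each without picrotoxin 20. Leaving out both libraries of replicate 3, 10 or 20 gave 0, 0 and 10 members, 0, 3 and 1044 genes, and 0, 0 and 17 downstream genes. In limma fits giving 0 members, 9 (without replicate 3), 10 (replicate 10), 13 (control 10), 11 (picrotoxin 3) and 15 (limma without trend and robust) had an unadjusted p under 0.05; so had 1407 of all genes without replicate 3, and 18 and 13 downstream genes without replicates 3 and 10. limma without trend and robust gave 0 members (Epha4 adjusted p 0.0847), 156 genes and 2 downstream genes, and no filter gave 2 members, Epha4 and Slit1. The cause was not tested. Signs turned in members near 0. With single libraries or replicates left out, Nrp1 ranged from -0.04 (picrotoxin 10 or replicate 10) to 0.09, Efna3 from -0.13 to 0.06 (picrotoxin 20), Dcc from -0.08 (picrotoxin 20) to 0.24 and Ephb6 from -0.18 to 0.17 (control 3). With the block, Nrp1 was at -0.04 without replicate 10 and Ephb6 at 0.05 without replicate 3. Ephb6 was at 0.00 and 0.01 with median-ratio and quantile scaling. Quantile scaling also moved 1 class 3 semaphorin and 1 plexin across 0. The planned count tests, edgeR and DESeq2, were not run, because the deposited values are scaled and not counts. Members near the minimum, such as Epha2 and Ntn3, are limited by their depth.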
